A study of Mus musculus with 6 samples.

Results

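The heat shock chaperones described here are 10 genes of the cytosolic and mitochondrial protein-folding machinery of the mouse, Hspa1a, Hspa1b, Hspa8, Dnajb1, Hsph1, Hsp90aa1, Hsp90ab1, Hspb1, Hspd1 and Hspe1. They were taken by symbol from a read count table of 55401 genes, and all 10 were found. The table covers 6 RNA sequencing libraries of knee articular cartilage, 3 from mice labelled adseverin knockout (cKO) and 3 from mice labelled wild type (WT). All mice, WT included, were dosed with tamoxifen (1.5 mg for each 10 g of weight, on 5 days in a row) from an age of 8 weeks, and cartilage was taken at 10 weeks. Adseverin, the product of Scin, severs and caps actin filaments. The labels name neither the driver of the deletion, nor the deleted part of Scin, nor how many mice a library came from. P-values therefore measure the spread between these libraries, which may be partly technical.

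Heat shock chaperones bind unfolded or partly folded proteins and keep them from clumping while they fold, move or are degraded. HSP70 proteins work in cycles of ATP hydrolysis with J proteins, which deliver clients and start hydrolysis, and with exchange factors, which reset the cycle. HSP90 proteins take over near-native clients such as kinases and steroid receptors, and the HSP60 and HSP10 chaperonin folds proteins imported into mitochondria. The transcription factor HSF1 raises the inducible members after heat and other stress by binding heat shock elements, which are runs of inverted GAA and TTC units. Chondrocytes carry a heavy load of secreted matrix protein, and their folding machinery is studied in loading and ageing of cartilage.

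Scin itself measured 39.1, 29.9 and 29.4 CPM in the cKO libraries, against 186, 185 and 219 CPM in the WT libraries, so each library matched its label. CPM here are depth-scaled read counts, with library sizes adjusted by TMM factors. Libraries held 22664828 to 31014996 reads. All 11 chondrocyte markers were detected, and their summed level was 35281 to 40567 CPM in cKO and 32565 to 33726 CPM in WT. Among them Acan, the aggrecan core protein, was lower in every cKO library, at 708 to 989 CPM in cKO and 1273 to 1440 CPM in WT (log2 fold change -0.61 ± 0.13, edgeR adjusted p = 0.535). Col2a1 was higher in every cKO library, at 15914 to 20596 CPM in cKO and 14452 to 15301 CPM in WT (0.25 ± 0.10, edgeR adjusted p = 0.742). Of the 11 markers, 5 had all cKO values above WT and 1, Acan, had all below. Of all genes tested, 6.41% and 5.89% did so. Osteoblast and osteocyte markers were as abundant in sum, at 38417 to 39914 CPM in cKO and 32811 to 39317 CPM in WT over 9 of 9 markers. Most of that sum came from Ibsp alone, at 24365 to 30047.5 CPM in cKO and 23181 to 25513 CPM in WT. In whole-tissue RNA, fewer cells of a type and less RNA per cell cannot be told apart.

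None of the 10 chaperones passed the test between genotypes, and the point estimates of most lay slightly lower in cKO. With the edgeR quasi-likelihood test and Benjamini-Hochberg adjustment over 16260 genes, 0 of 10 had an adjusted p under 0.05, against 0.00615% of all genes tested, which is Scin alone. At an unadjusted p under 0.05 there was 1 member, Hspd1, lower in cKO, where 2.96% of all genes tested were called lower and 6.5% were called in either direction. DESeq2 and limma-voom called 0 members as well, with 2 members at an unadjusted p under 0.05 in each, where 4.84% of all genes tested in DESeq2 and 7.17% in limma-voom were. DESeq2 called 0.538% of the genes to which it gave an adjusted p. The log2 fold change, cKO minus WT, was below 0 for 8 members, a direction held by 49.4% of all genes tested. Its median was -0.14 over the members and 0.0037 over all genes tested. The members' estimates ran from -0.38 to 0.05, and the 95% intervals of 9 of the 10 included 0. The outermost limits among the 10 intervals were -0.83, for Hspa1b, and 0.47, for Hspa1a.

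**Figure D1:**
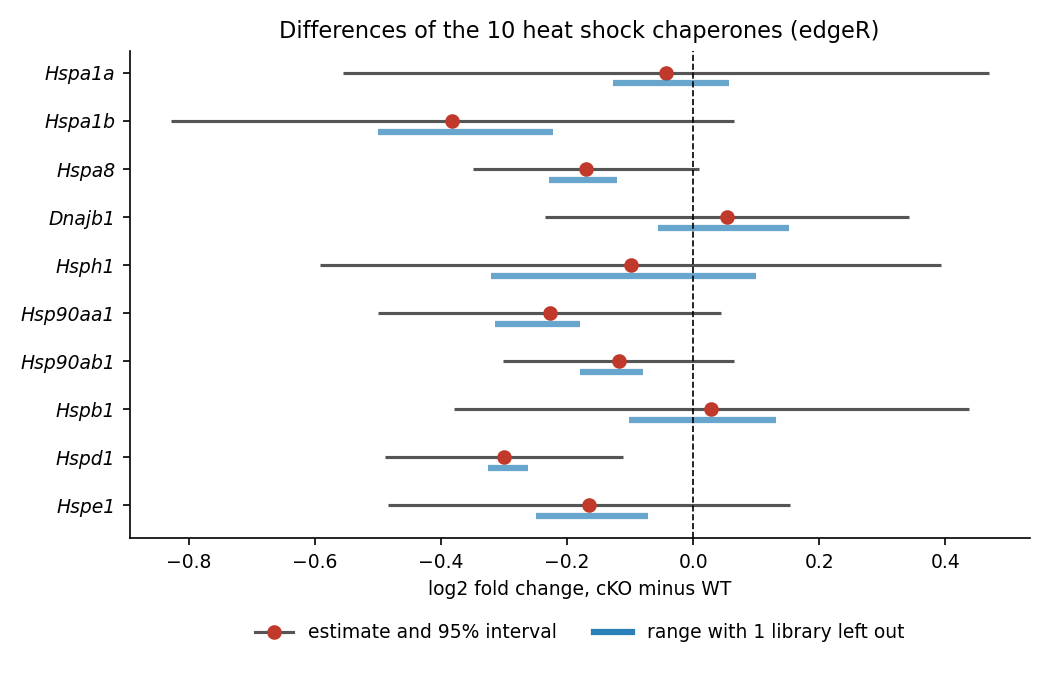
The log2 fold change (cKO minus WT) of each of the 10 chaperones is plotted as a point with its 95% interval, and the blue bar gives the range of estimates when single libraries are left out. The interval of Hspd1 lies wholly below 0, and the estimates of Hspa1a, Dnajb1, Hsph1 and Hspb1 cross 0 when single libraries are left out.

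Together the 10 genes took 0.168%, 0.153% and 0.155% of all reads in the cKO libraries, against 0.179%, 0.180% and 0.171% in the WT libraries. After TMM scaling, the summed level was 1689, 1558 and 1534 CPM in cKO and 1753, 1818 and 1720 CPM in WT. The groups did not overlap in this sum, but cKO 1 lay close to the lowest WT library. Hspa8 and Hsp90ab1, the constitutive cytosolic HSP70 and HSP90, supplied 79.1% to 82.0% of it in cKO and 79.2% to 80.6% in WT, so the sum mostly follows them.

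Hspa8 encodes the constitutive HSP70, which also strips clathrin from coated vesicles and delivers substrates to lysosomes. The gene lies on chromosome 9, 40800984 to 40810087 (GRCm38, plus strand). Its level was 689, 627 and 595 CPM in the cKO libraries, against 714, 724 and 711 CPM in the WT libraries. All 3 cKO values lay below all 3 WT values, and the WT libraries were closer together than the cKO libraries. The log2 fold change was -0.17 ± 0.08 (SE), a level 11.1% lower in cKO, with a 95% interval of -0.35 to 0.0097 (edgeR unadjusted p = 0.0609, adjusted p = 0.785). Separation of the groups in this direction was seen for 2 of the 10 members, Hspa8 and Hspd1, and for 5.89% of all genes tested, and no member had all cKO values above WT, where 6.41% of genes did. With WT 1 left out the groups of 4 members did not overlap, as for 23.7% of all genes tested in that setting, against 12.3% with all libraries, both directions together. Of the Hspa8 transcript, 73.2% of 50-base windows also occur in transcripts of other genes, most in the processed pseudogene Gm15459, which had 79 to 119 reads per library beside 14219 to 20076 for Hspa8.

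Hspa1a and Hspa1b are the stress-inducible HSP70 genes, intronless neighbours on the minus strand of chromosome 17 at 34969190 to 34972156 and 34956436 to 34959238. They are close to being copies of each other, which limits how far reads can be assigned to either. The sequences around their starts are shown because they make that visible. In both, 250 bases before to 50 after the RefSeq start (GRCm38.p6, minus strand, written 5′ to 3′), capitals mark a match to a heat shock element of 2 units, GAANNTTC.
Hspa1a, chr17:34972107-34972406: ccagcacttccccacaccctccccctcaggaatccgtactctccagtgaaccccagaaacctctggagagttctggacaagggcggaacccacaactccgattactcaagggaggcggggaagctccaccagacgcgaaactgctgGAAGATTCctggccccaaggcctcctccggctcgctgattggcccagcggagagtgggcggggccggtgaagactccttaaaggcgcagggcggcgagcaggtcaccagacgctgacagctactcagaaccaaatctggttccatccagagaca
Hspa1b, chr17:34959189-34959488: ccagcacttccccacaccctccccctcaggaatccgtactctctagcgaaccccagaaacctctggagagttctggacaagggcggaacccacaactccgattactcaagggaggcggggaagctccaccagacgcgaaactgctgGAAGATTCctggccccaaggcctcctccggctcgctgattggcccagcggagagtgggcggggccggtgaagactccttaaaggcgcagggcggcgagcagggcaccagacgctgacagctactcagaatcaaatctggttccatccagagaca
The windows were identical at 296 of 300 bases. Counting from 1 at the 5′ end of the window, with the Hspa1a base first, the differences were C44T, T47C, T249G and C276T, and the heat shock element match was the same in both, 104 to 97 bases before the start. Over the transcripts, 58.8% of 50-base windows of Hspa1a also occur in Hspa1b and 62.3% of those of Hspa1b occur in Hspa1a. No label says how reads that fit both were counted, so the split between the genes is uncertain. Hspa1a exons also share 564 bases with Gm20481 on the opposite strand, which was listed at 0 reads in every library.

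Both inducible genes were present at low level. Hspa1b stood at 15.1, 21.1 and 20.6 CPM in the cKO libraries, against 20.6, 30.1 and 23.3 CPM in the WT libraries. WT 2 was the highest and cKO 1 the lowest, and cKO 2 overlapped WT 1. The log2 fold change of -0.38 ± 0.20 was the most negative of the 10 (95% interval -0.83 to 0.07, edgeR adjusted p = 0.811), and it was -0.22 without WT 2, -0.24 without cKO 1 and -0.50 without WT 1. Hspa1a stood at 5.89, 7.04 and 7.66 CPM in cKO and 6.90, 7.68 and 6.65 CPM in WT, on 133 to 214 reads. Its groups overlapped throughout (log2 fold change -0.04 ± 0.22, edgeR adjusted p = 0.987), and the estimate turned to 0.056 without cKO 1 and 0.01 without WT 2. Summed to avoid the uncertain split, the pair stood at 21.0, 28.1 and 28.2 CPM in cKO and 27.5, 37.8 and 29.98 CPM in WT, and these groups overlapped too.

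Dnajb1 encodes HSP40, the J protein that brings clients to inducible HSP70. Its level was 67.9, 65.1 and 73.5 CPM in the cKO libraries, against 67.6, 75.6 and 55.7 CPM in the WT libraries. The WT libraries spanned the whole range of the cKO libraries, and the log2 fold change was 0.05 ± 0.13 (95% interval -0.23 to 0.34, edgeR adjusted p = 0.972). Without WT 3, its lowest library, it was -0.057.

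Hsph1 encodes HSP110, which recharges HSP70 with ATP and helps it dissolve aggregates. It is on chromosome 5 (149614287 to 149636376, minus strand). Its start region is shown because it holds a heat shock element of 3 units. In the window of chr5:149636266-149636565 (GRCm38.p6, minus strand, RefSeq) capitals mark matches to GAANNTTC, TTCNNGAA and their 3-unit extensions.
Hsph1: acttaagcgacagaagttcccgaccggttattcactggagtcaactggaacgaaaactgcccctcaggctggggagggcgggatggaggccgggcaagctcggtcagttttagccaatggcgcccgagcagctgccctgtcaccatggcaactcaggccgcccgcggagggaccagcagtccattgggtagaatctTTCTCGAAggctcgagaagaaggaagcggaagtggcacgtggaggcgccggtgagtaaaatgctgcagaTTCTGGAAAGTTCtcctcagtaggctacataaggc
The 3-unit match TTCTGGAAAGTTC lay 15 to 27 bases after this start and a 2-unit match lay 54 to 47 bases before it. Hsph1 varied more within the groups than any other member. It measured 46.8, 67.4 and 43.4 CPM in the cKO libraries, against 53.1, 71.4 and 44.5 CPM in the WT libraries. In each group replicate 2 was far above the other libraries, so the groups overlapped almost fully. The pooled within-group SD was 0.34 on the log2 scale, larger than or equal to that of 96.2% of 2158 genes of like level (within 0.5 log2 units). The log2 fold change was -0.10 ± 0.22 (95% interval -0.59 to 0.39, edgeR adjusted p = 0.970). It was 0.10 without WT 2, 0.02 without cKO 3, 0.22 with both left out and -0.32 as the lowest estimate with 1 library left out. No 50-base window of the Hsph1 transcript occurs in another gene.

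Hsp90ab1 encodes the constitutive HSP90 beta and Hsp90aa1 the more inducible HSP90 alpha. Hsp90ab1 stood at 696, 606 and 622 CPM in the cKO libraries, against 696, 717 and 675 CPM in the WT libraries. The cKO 1 value lay inside the WT range and the others lay below it, and the log2 fold change was -0.12 ± 0.08 (95% interval -0.30 to 0.06, edgeR adjusted p = 0.867), or -0.18 to -0.080 with single libraries left out. Hsp90aa1, on chromosome 12 at 110690605 to 110702728, stood at 40.7, 41.3 and 48.8 CPM in cKO and 54.0, 47.0 and 52.2 CPM in WT. Only cKO 3 reached into the WT range, and the log2 fold change was -0.23 ± 0.12 (95% interval -0.50 to 0.04, edgeR adjusted p = 0.812). Of the Hsp90aa1 transcript, 58.5% of 50-base windows occur in other genes, mainly the pseudogene Gm12346, against 4.49% for Hsp90ab1.

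Hspb1 encodes the small heat shock protein HSP27 (HSP25 in the mouse), an ATP-independent holdase that also binds actin filaments. Its start region on chr5:135887669-135887968 (GRCm38.p6, plus strand, RefSeq) holds a pair of 2-unit matches, in capitals, and is shown for comparison with the longer elements of Hsph1 and Hspe1.
Hspb1: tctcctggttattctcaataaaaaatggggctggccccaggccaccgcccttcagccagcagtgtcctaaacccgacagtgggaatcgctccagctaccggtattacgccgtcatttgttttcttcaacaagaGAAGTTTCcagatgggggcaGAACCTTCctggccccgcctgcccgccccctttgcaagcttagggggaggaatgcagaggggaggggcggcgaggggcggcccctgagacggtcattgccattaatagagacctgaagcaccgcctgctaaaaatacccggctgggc
The matches lay 117 to 110 and 97 to 90 bases before the start. Hspb1 stood at 15.3, 16.6 and 18.8 CPM in the cKO libraries, against 13.6, 19.0 and 17.1 CPM in the WT libraries. The groups overlapped, with both extremes in WT, and the log2 fold change was 0.03 ± 0.18 (95% interval -0.38 to 0.44, edgeR adjusted p = 0.989). It was -0.05 without cKO 3 and -0.10 without WT 1. A pseudogene, Hsp25-ps1, holds 51.6% of the 50-base windows of Hspb1 and had at most 1 read per library.

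The mitochondrial pair, Hspd1 (HSP60) and Hspe1 (HSP10), is encoded head to head on chromosome 1. Hspd1 runs on the minus strand at 55077835 to 55088243 and Hspe1 on the plus strand at 55088132 to 55091307, and their exons share 112 bases. The region between the starts is shown because it serves both genes. In the Hspe1 window, chr1:55087898-55088197 (GRCm38.p6, plus strand, RefSeq), capitals mark overlapping 3-unit matches.
Hspe1: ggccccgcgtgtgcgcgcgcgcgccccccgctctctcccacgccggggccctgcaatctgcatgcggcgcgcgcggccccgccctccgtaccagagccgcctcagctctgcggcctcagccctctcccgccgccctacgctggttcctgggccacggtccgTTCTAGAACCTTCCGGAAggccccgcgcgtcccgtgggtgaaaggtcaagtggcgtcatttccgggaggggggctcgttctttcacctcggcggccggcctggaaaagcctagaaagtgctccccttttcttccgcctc
The run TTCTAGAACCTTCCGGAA is 18 bases long and ends 72 bases before the Hspe1 start. Read on the minus strand it lies 144 to 127 bases before an Hspd1 start that is 216 bases from the Hspe1 start. A second annotated Hspd1 start lies 95 bases inside Hspe1. Of 27025 genes with RefSeq windows of this length, 17% held a 2-unit match (GAANNTTC or TTCNNGAA, each the same on both strands) in at least 1 window and 0.662% a 3-unit match (GAANNTTCNNGAA or its other-strand form TTCNNGAANNTTC, which contain the 2-unit ones). Windows were found for 7 of the 10 members, Hspa8, Hsp90aa1 and Hsp90ab1 being without one. Of the 7, 6 held a 2-unit match and 3 a 3-unit match, Dnajb1 held neither in these letters, and the matches of Hspd1 and Hspe1 are the same bases. A match of letters is a description of sequence and not a measurement of binding.

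Hspd1 had the smallest p-value of the 10. It measured 79.9, 79.3 and 73.7 CPM in the cKO libraries, against 97.1, 93.2 and 96.4 CPM in the WT libraries. The groups were well apart, with the nearest libraries of the groups further from each other than any 2 libraries within a group. The log2 fold change was -0.30 ± 0.08, a level 18.8% lower in cKO, with a 95% interval of -0.49 to -0.11 (edgeR unadjusted p = 0.0061, adjusted p = 0.658; rank 146 of 16260 by p). The estimate stayed between -0.32 and -0.26 with single libraries left out, and the adjusted p was 0.168 in DESeq2, the smallest of all alternatives tried. The pooled within-group SD of Hspd1 was 0.051 on the log2 scale, larger than or equal to that of 4.39% of 1641 genes of like level. Hspe1 stood at 32.9, 27.1 and 30.7 CPM in cKO and 30.1, 33.4 and 38.0 CPM in WT. Its groups overlapped, and the log2 fold change was -0.17 ± 0.14 (95% interval -0.48 to 0.15, edgeR adjusted p = 0.897). It was -0.25 without WT 1, -0.092 without cKO 2 and -0.072 without WT 3. Copies again limit the assignment of reads, since 44.8% of 50-base windows of Hspd1 and 36.1% of those of Hspe1 occur in other genes. The nearest copy of Hspd1, the pseudogene Hspd1-ps3, had 195, 252 and 195 reads in cKO and 301, 234 and 252 reads in WT, beside 1760 to 2730 for Hspd1. These reads are not scaled for depth, and cKO 2 held 31014996 reads in all, against 23018642 in WT 2. The counts of the copy therefore cannot be compared between the groups as they stand. Whether they follow Hspd1 was not tested.

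In the same comparison the summed level of the chondrocyte markers was higher in every cKO library than in any WT library, with 9 of 11 above 0. All 8 macrophage markers were below 0, with a summed level of 486 to 668 CPM in cKO and 631 to 849.5 CPM in WT, and none of them was at 0 reads. All 9 erythroid markers were above 0, with a summed level of 2899 to 4412 CPM in cKO and 2762 to 3100 CPM in WT. All 7 tested adipocyte markers were below 0, with Lep listed at 0 reads, and their sums overlapped at 255 to 551 CPM in cKO and 236 to 540.02 CPM in WT. Osteoblast and osteocyte markers had 8 of 9 estimates above 0 and neutrophil markers 6 of 7. Fibroblast and osteoclast markers had 7 of 8 below 0 each, and endothelial and pericyte or smooth muscle markers 5 of 7 each. The sums of these further lists overlapped between the groups. Of all genes tested, 49.4% were below 0. The part of these cell types in the values of Hspd1 and Hspa8 was not tested.

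**Figure D2:**
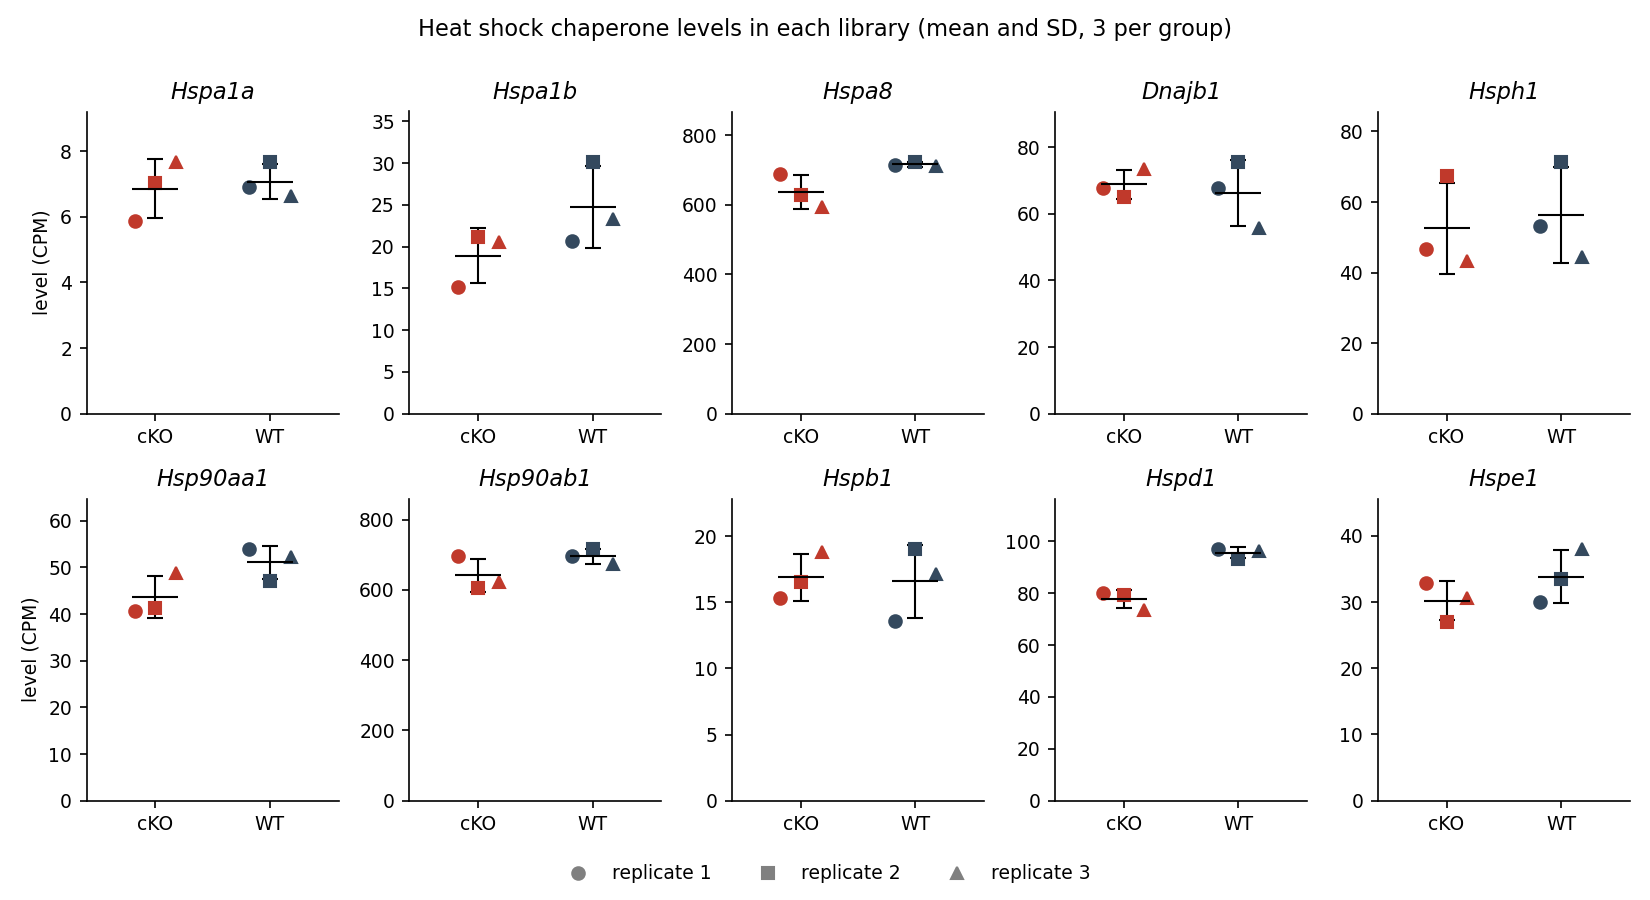
Each panel plots the level of 1 chaperone in CPM (linear axis from 0) in the 3 cKO and 3 WT libraries, with the mean and SD as a bar. In the panels of Hspa8 and Hspd1 the groups do not overlap, and in the panel of Hsph1 replicate 2 is the highest of each group.

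Ordered by level per length (RPKM, the CPM divided by the exon length in kilobases), the 10 genes covered a wide range. The exon length is the union over all annotated transcripts. It was 4301 bases for Hspa8, whose longest coding transcript has 2394, and 2999 against 2520 for Hsp90ab1. For Hspe1 it was 1474 against 774 bases and for Hspd1 2642 against 2423. For Hsph1 it was 7266 against 3802 bases. The order of Hsp90ab1 and Hspa8, of Hspd1 and Hspe1, and of Hspa1b and Hsph1 therefore depends on the length used. Hsp90ab1 averaged 214 ± 16.0 RPKM in cKO and 232 ± 7.01 in WT (SD, n = 3 each), above 99.2% of tested genes or level with them. Hspa8 followed at 148 ± 11.1 RPKM in cKO and 167 ± 1.51 in WT. Next came Hspd1 at 29.4 ± 1.305 RPKM in cKO and 36.2 ± 0.784 RPKM in WT. Between these 3 the ranges over the 6 libraries did not overlap, nor did that of Hspd1 with that of Hspe1 below it. From Hspe1 through Dnajb1, Hspb1, Hsp90aa1, Hspa1b and Hsph1, each neighbour in the order overlapped the next. Their levels ran from 25.8 RPKM in the highest Hspe1 library to 5.40 in the lowest Hspa1b library. Hspa1a was the lowest at 1.98 to 2.59 RPKM, separate from Hsph1 above it, with the reservation that reads are split between Hspa1a and Hspa1b in a way not known. Sequence shared with other genes may also affect the levels of Hspa8, Hsp90aa1, Hspb1, Hspd1 and Hspe1.

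**Figure D3:**
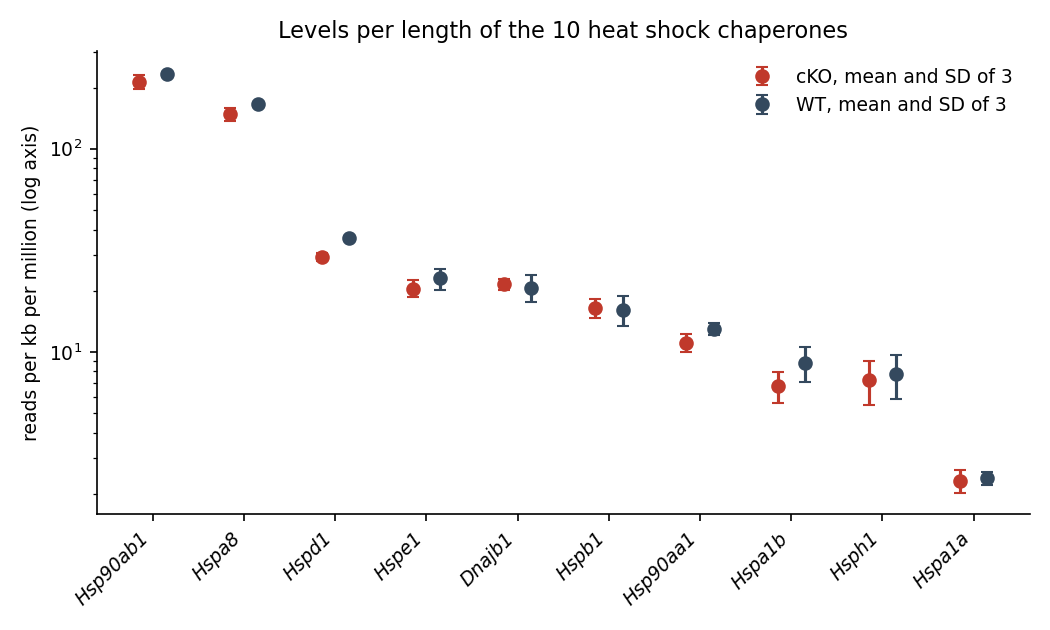
The level per length (RPKM, log axis) is plotted for the 10 chaperones as mean and SD of 3 libraries, cKO left of WT, in falling order. Hsp90ab1 and Hspa8 stand far above the rest, and Hspa1a is the lowest at 2.31 RPKM in cKO and 2.39 RPKM in WT on average.

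Ratios taken within a library do not depend on its scaling. Their size does depend on the exon lengths used and on how reads that fit several genes were counted, which is not known. Of 50-base windows, 58.5% of Hsp90aa1, 4.49% of Hsp90ab1 and 73.2% of Hspa8 occur in other genes. The percentages are therefore read between libraries and not as true shares. Per length, Hsp90aa1 was 4.46%, 5.20% and 5.99% of Hsp90ab1 in the cKO libraries, against 5.91%, 5.00% and 5.90% in the WT libraries. Hspa1a and Hspa1b together were 4.61%, 6.79% and 7.16% of Hspa8 in cKO and 5.83%, 7.93% and 6.39% in WT. The inducible share thus overlapped between the groups in both families. Dnajb1 was 13.2%, 13.9% and 16.6% of Hspa8 in cKO and 12.7%, 14.02% and 10.5% in WT, and Hsph1 was 4.02% to 6.36% in cKO and 3.70% to 5.84% in WT. Hspe1 was 73.7%, 61.2% and 74.6% of Hspd1 in cKO and 55.5%, 64.3% and 70.7% in WT. Over these and the ratio of Hspa1a to Hspa1b, 6 ratios in all, the smallest two-sided exact permutation p was 0.2, for Hspa1a to Hspa1b, and 0.8 after Benjamini-Hochberg adjustment; 3 libraries against 3 cannot go below 0.1.

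The libraries themselves differed in their chaperone levels. WT 2 was the highest of the 6 libraries for 7 members, Hspa1a, Hspa1b, Hspa8, Dnajb1, Hsph1, Hsp90ab1 and Hspb1, and no cKO library was the highest for any. The lowest value fell in cKO 1 for 3 members, in cKO 3 for 3, in cKO 2 for 2, and in WT 1 and WT 3 for 1 each. Averaged over the members, the deviation from the gene means was -0.12, -0.05 and -0.04 on the log2 scale in the cKO libraries, against 0.0078, 0.18 and 0.02 in the WT libraries. WT 2 also had the highest skeletal muscle RNA, where 8 of 10 markers were tested, all 8 had estimates below 0 and none was at 0 reads in all libraries. The summed muscle level was 39.6 to 256 CPM in cKO, 1409 CPM in WT 2 and 66.9 and 40.9 CPM in the other WT libraries. Without WT 2, 6 of the 10 members were below 0 rather than 8, while the median log2 fold change of -0.14 was the same. The 5 tested genes whose profile lay closest to the mean profile of the members, among 9084 with a mean of at least 10 CPM, were Ccdc124, Gatad2b, Mrps18c, Rex1bd and Txn2. Their root mean square differences from it were 0.027 to 0.028 on the log2 scale over the 6 libraries, against a median of 0.19 over the candidates and 0.094 to 0.24 for the members themselves. The 5 genes were picked as the closest of the candidates, so their small differences follow from the pick.

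**Figure D4:**
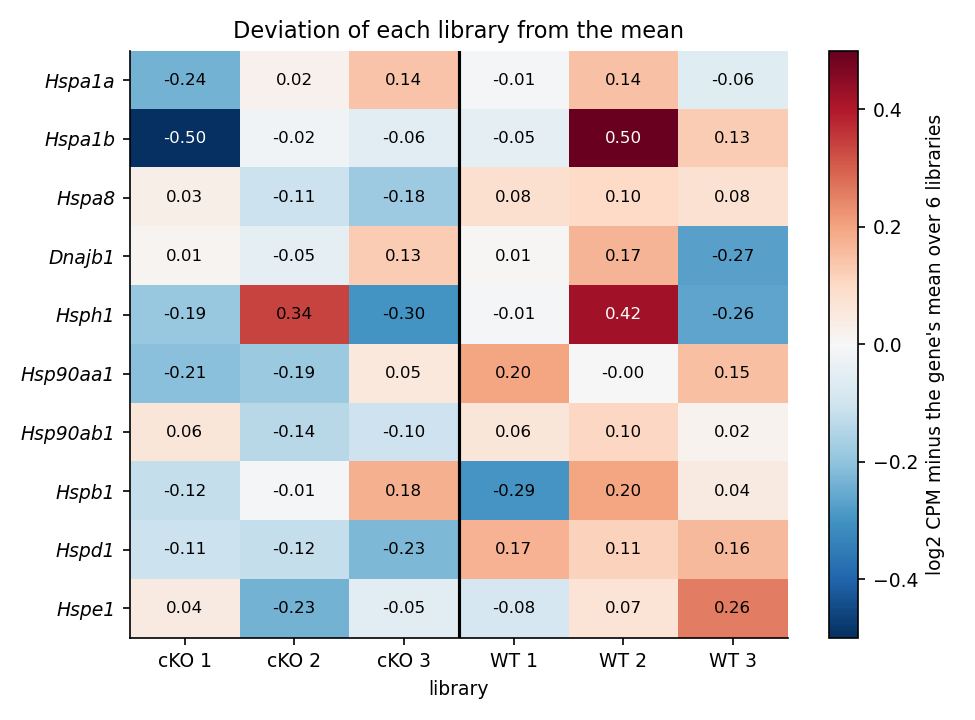
Each cell gives the log2 CPM of a chaperone in a library minus that gene's mean over the 6 libraries, with cKO libraries left and WT libraries right of the line. WT 2 is above the mean in every row but that of Hsp90aa1, and cKO 1 and WT 2 hold the extremes of Hspa1b at -0.50 and 0.50.

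The partners and relatives of these chaperones were read from 9 further lists with 86 genes, of which 81 were tested. In edgeR, 0 of them passed an adjusted p of 0.05, and DESeq2 and limma-voom called 0 as well. At an unadjusted p under 0.05 there were 2 lower and 4 higher in cKO, together 7.41% of the 81, where 6.5% of all genes tested were. Estimates were below 0 for 46 of the 81, or 56.8%, with a median log2 fold change of -0.02. Groups did not overlap for 4 genes lower and 4 genes higher in cKO, 4.94% in each direction, where 5.89% and 6.41% of all genes tested did so.

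Among the regulators of the response, Hsf1 stood at 53.2, 50.2 and 58.0 CPM in cKO and 49.1, 56.8 and 44.7 CPM in WT. These groups overlapped (log2 fold change 0.10 ± 0.12, edgeR adjusted p = 0.933). Hsf2, a related factor active in development, was low at 7.04, 5.20 and 8.12 CPM in cKO, against 3.66, 4.34 and 4.26 CPM in WT. All cKO values lay above all WT values, with a log2 fold change of 0.73 ± 0.27 (edgeR adjusted p = 0.704). Hsf4, the lens factor, was at the edge of detection at 1.73, 3.29 and 2.97 CPM in cKO, against 1.99, 1.27 and 1.71 CPM in WT (log2 fold change 0.68 ± 0.43). Hsbp1, which binds HSF1, had a log2 fold change of -0.0071 ± 0.074.

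TRiC is the ring-shaped cytosolic chaperonin that folds actin and tubulin. All 8 subunit genes had estimates below 0, as 49.4% of all genes tested did, with a median of -0.12 and 0 past the threshold (smallest edgeR adjusted p = 0.790). Cct2 stood at 85.6, 79.4 and 78.1 CPM in cKO, against 87.5, 104 and 89.7 CPM in WT. Cct6a stood at 135, 133 and 116 CPM in cKO, against 141, 143 and 147 CPM in WT. In both the groups did not overlap, as for 5.89% of all genes tested in this direction. Log2 fold changes of Cct2 and Cct6a were -0.21 ± 0.10 and -0.16 ± 0.09. The median of the list ran from -0.13 to -0.08 with single libraries left out. Cct5, the most abundant subunit gene per length, was at -0.13 ± 0.09. Prefoldin, which hands actin and tubulin to TRiC, had 4 of 6 estimates below 0 and a median of -0.034, which was 0.019 without cKO 3. Pfdn2, Pfdn4 and Pfdn1 were at -0.13 ± 0.14, -0.11 ± 0.23 and -0.019 ± 0.092.

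Other HSP70 and HSP110 genes had 6 of 7 estimates below 0 and a median of -0.19, with Hspa4, an HSP110 protein, at -0.22 ± 0.11 on the log2 scale, Hspa12b at -0.73 ± 0.46 on 1.56 to 4.41 CPM, and Hspa2, best known from testis, at -0.053 ± 0.11. J proteins were mixed, 5 of 11 below 0, with a median of 0.0094 that was -0.064 without cKO 1. Dnajc7, which binds both HSP70 and HSP90, had the smallest p of all 81 genes at 118, 112 and 108 CPM in cKO, against 93.4, 89.5 and 91.2 CPM in WT. Its groups did not overlap (log2 fold change 0.30 ± 0.08, edgeR adjusted p = 0.618), whereas Dnajb14, an ER membrane J protein, lay the other way at -0.33 ± 0.14 and Dnajc8 was at 0.0094 ± 0.092. HSP70 exchange factors and adaptors had 4 of 9 below 0 and a median of 0.0049, which was -0.030 without cKO 1. Bag5 was at 0.16 ± 0.09, Bag4 at 0.19 ± 0.15 and the abundant Bag1 at -0.023 ± 0.081.

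HSP90 co-chaperones had 10 of 16 estimates below 0 and a median of -0.021, which was -0.098 without cKO 1 and 0.0064 without cKO 2. Fkbp5, a glucocorticoid-induced immunophilin, stood at 29.0, 33.0 and 46.9 CPM in cKO, against 32.0, 22.9 and 19.6 CPM in WT. Its groups overlapped (log2 fold change 0.55 ± 0.23, edgeR adjusted p = 0.752), and Ahsa1, which stimulates the ATPase of HSP90, was at -0.19 ± 0.10. Ptges3, the co-chaperone p23, was at 0.012 ± 0.077. Of the other small heat shock proteins, 5 of 8 were tested and 2 were below 0, with a median of 0.087 that ran from 0.025 to 0.14 with single libraries left out, lowest without WT 3. Hspb6, abundant in muscle, stood at 41.2, 40.1 and 39.6 CPM in cKO, against 41.5, 60.9 and 51.1 CPM in WT, with WT 2, the library with most muscle RNA, the highest. The groups were only just apart (log2 fold change -0.34 ± 0.15, edgeR adjusted p = 0.752), and the part of muscle RNA in this was not tested. Hspb8, a partner of the adaptor Bag3, was at -0.32 ± 0.21. Cryab, alpha-B-crystallin, was the most abundant of this list at 125, 133 and 147 CPM in cKO, against 117, 135 and 130 CPM in WT. Mitochondrial chaperones and proteases other than Hspd1 and Hspe1 had 6 of 15 below 0 and a median of 0.036, which was -0.029 without cKO 1. Htra2, a protease of the intermembrane space, had the smallest p of the list at 0.32 ± 0.17 (edgeR adjusted p = 0.812), whereas the protease subunit Clpp was at -0.22 ± 0.13 and Hspa9, the mitochondrial HSP70, at -0.14 ± 0.10.

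Immediate early genes, which are induced within minutes by handling or signalling, had 15 of 22 estimates below 0, where 49.4% of all genes tested were. Their median log2 fold change was -0.12, with 0 genes past the threshold. That median was -0.36 without cKO 1, -0.21 without WT 1, -0.062 without cKO 2, -0.043 without WT 2 and 0.047 without WT 2 and cKO 3 together. Their summed level was 3312, 2079 and 1950 CPM in the cKO libraries, against 2356, 3166 and 2952 CPM in the WT libraries. The highest of the 6 was cKO 1, the library with the lowest mean deviation of the chaperones. Jun stood at 78.5, 50.9 and 42.1 CPM in cKO, against 69.8, 96.7 and 84.6 CPM in WT. Fosl2 and Jund, at -0.35 ± 0.12 and -0.41 ± 0.15 on the log2 scale, did not overlap between the groups (edgeR adjusted p = 0.700 for both). Egr3, at 0.39 ± 0.21, was the only gene of the list with all cKO values above WT. Of all genes tested, 5.89% were apart in the lower and 6.41% in the higher direction. At an edgeR unadjusted p under 0.05, 4 genes of the list were lower and 1, Egr2, was higher (0.62 ± 0.26). Of all genes tested, 6.5% reached that p in either direction. Dusp1, the most abundant of the list per length, stood at 841, 683 and 648 CPM in cKO, against 785, 1140.5 and 914 CPM in WT (log2 fold change -0.39 ± 0.15).

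**Figure D5:**
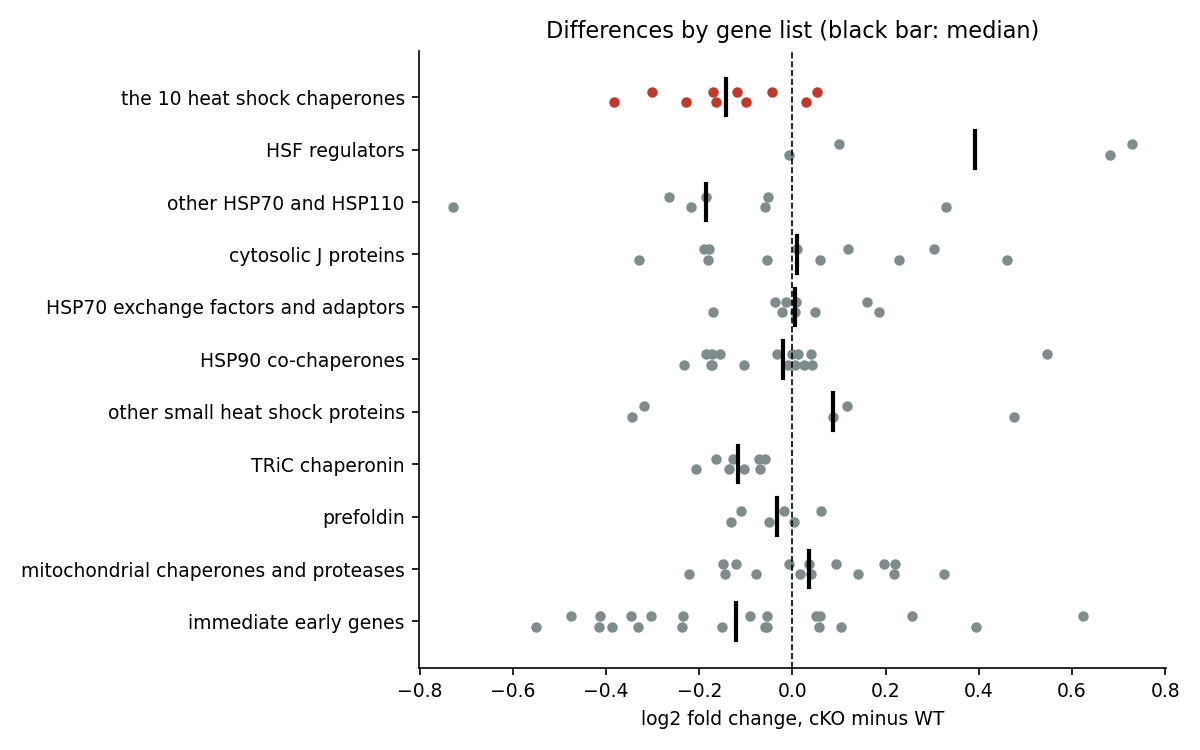
Every tested gene of the 10 chaperones and of the 9 related lists and the immediate early genes is plotted as a point at its log2 fold change (cKO minus WT), 1 list per row, and the black bar is the list's median. The members' median is -0.14 and all 8 TRiC subunits lie below 0. The HSF row has the highest median at 0.39, between Hsbp1 and Hsf1 at -0.0071 and 0.10 and the low-level Hsf4 and Hsf2 at 0.68 and 0.73.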

How the data were processed

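The values used are whole-number counts of reads for 55401 Ensembl genes, deposited by the authors without normalization. Libraries were made from total cartilage RNA with a low-input kit for full-length cDNA, per the labels' protocols. The submitters' processing notes list DESeq2 1.30.1, R 4.0.5, featureCounts 2.0.1, HISAT2 2.2.1, FastQC 0.11.9 and the build GRCm38. Which annotation release was used, whether strand was counted and how reads with several matches were handled is not stated there. A deposited table of scaled values was not used. Symbols were found for 55141 identifiers, and coordinates and exon-union lengths come from a GRCm38 annotation.

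filterByExpr kept 16260 genes, all 10 chaperones among them. TMM factors were applied, and genotype was the single term of an edgeR 4.0.16 quasi-likelihood fit (glmQLFit, glmQLFTest, R 4.3.3) with 4 residual degrees of freedom. P-values were adjusted by Benjamini-Hochberg over these genes, with 0.05 as the threshold. Each SE is the absolute log2 fold change divided by the square root of F. Library pairs of a group had a chi-square of 31.4 to 36.5 per degree of freedom, so none was counted as a duplicate.

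The 10 chaperones and all lists were chosen with earlier results of these data known. The text draws on these genes: all 10 chaperones, the 2 genes of each list with the smallest p (no list had a gene past the threshold), the gene of each list with the highest RPKM, Scin, Acan and the 5 genes nearest in profile. The rule also names Col2a1, Prg4 and the 2 most abundant markers of each cell type. Their single values are left out here except those of Col2a1 and Ibsp. Hsf1, Jun, Egr2 and Egr3 fall outside it and were picked with their values in view. Scripts were tested on simulated counts. Alternatives were DESeq2 1.42.0, limma-voom (limma 3.58.1), other scaling factors, filters and dispersion, a replicate block, and leaving out libraries. Promoter windows are those of RefSeq on GRCm38.p6.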

Additional observations from a re-analysis of the deposited data

How the results depend on the processing

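Under 16 alternatives, no member and no related chaperone gene passed an adjusted p of 0.05. The direction of Hspa1b, Hspa8, Hsp90aa1, Hsp90ab1, Hspd1 and Hspe1 was the same in all of them. With single libraries left out, estimates ranged from -0.13 to 0.056 for Hspa1a, -0.057 to 0.15 for Dnajb1, -0.32 to 0.10 for Hsph1 and -0.10 to 0.13 for Hspb1, so these have no settled sign; Hsph1 was at 0.22 without WT 2 and cKO 3 together. The count of all genes past the threshold was 1, against 91 in DESeq2, 3 with no filter, 0 without WT 2 and cKO 3 together, and 1 to 2 with single libraries left out. Members with groups apart numbered 2, and 3 with library sizes alone in place of TMM factors. With single libraries left out they numbered 3 to 4, where fewer values have to separate. Of all genes tested, 12.3% were apart with all libraries and TMM factors, and 21.3% to 23.7% with 1 left out. The share with library sizes alone is not given. Same-numbered libraries correlated in their deviations at -0.017, 0.062 and 0.018, and differently numbered ones at -0.057 to 0.044. With 3 libraries per group these values cannot decide whether the numbers pair samples. With the replicate block, 1 gene and 0 members passed. Medians near 0 turned sign with 1 library left out for J proteins, exchange factors, HSP90 co-chaperones, prefoldin and mitochondrial chaperones, and that of immediate early genes with WT 2 and cKO 3 left out. The cause of these changes was not tested. Depth limits mainly Hspa1a, on 133 to 214 reads.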
